A study of Homo sapiens with 10 samples.

Results

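Cholesterol synthesis was followed through 8 genes, namely HMGCS1, IDI1, SQLE, LSS, EBP, DHCR7, SREBF2 and INSIG1, in RNA-seq libraries of human bladder cancer (BC) cells. They were taken by name, with earlier results of these data known, from the 61533 genes of the count tables. All 8 were among the 16181 genes with enough counts to be tested. Of the 8, 6 encode enzymes of the pathway and the other 2 encode its regulators. None is a lipoprotein receptor, so uptake is described through other listed genes. The groups were the T24 line, a cisplatin-sensitive BC line, and T24R2, its cisplatin-resistant derivative obtained by stepwise exposure of T24 to the drug, with 5 libraries of each from day 3 of culture. The labels give RPMI with 10% serum and antibiotics for both lines, whereas the methods keep T24R2 in medium with cisplatin, so a difference of the lines and an effect of the drug in the medium cannot be told apart here. T24R2 is a single derived line, and nothing in the labels says that its libraries, or those of T24, came from separate cultures. The p-values therefore measure the spread between these libraries, which may be technical.

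Cells build cholesterol from acetyl-CoA through mevalonate, isoprenoid diphosphates, squalene and lanosterol. The transcription factor encoded by SREBF2 is held in the endoplasmic reticulum by SCAP and the INSIG proteins when sterols are plentiful. When sterols fall it is carried to the Golgi, cut by the proteases encoded by MBTPS1 and MBTPS2, and enters the nucleus, where it switches on the synthesis genes and INSIG1, which closes the loop. Oxysterols act through the liver X receptors NR1H2 and NR1H3, which switch on the efflux pumps ABCA1 and ABCG1. The apical membrane of the normal bladder epithelium is itself rich in cholesterol.

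Total counts were 9257843 to 10840954 per library, and levels are given as CPM (counts scaled to library size) after TMM scaling, with the SD of 5 libraries. A gene was called at an edgeR quasi-likelihood adjusted p under 0.05 with a log2 fold change beyond 0.5 in either direction. The lines differed widely, with 4027 genes called higher and 4282 called lower in T24R2, a split that became 5206 and 3431 without TMM scaling, where the median over all tested genes moved from 0.01 to 0.18 in log2. Of 11 urothelial markers, 6 exceeded 1 CPM in T24 and 5 in T24R2. The keratins KRT7, KRT8 and KRT18 averaged 691 CPM or more in both lines, whereas KRT20 had no count and KRT5 and UPK1B had at most 6 counts in a library. The urothelial factor GATA3 averaged 22.1 CPM in T24 and 0.214 CPM in T24R2. None of 4 immune markers exceeded 1 CPM in either line. CDH5, an endothelial marker, averaged 239 CPM in T24 and 0.559 CPM in T24R2, with the endothelial list at 2 of 3 genes above 1 CPM in T24 and 1 of 3 in T24R2 and the fibroblast list at 1 of 4 in each. Their part in the results below was not tested.

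All 8 cholesterol genes were higher in T24R2, against 24.9% of all tested genes called higher. The 8 were chosen with earlier results of these data known, so this contrast and the next are descriptions only. In each of the 8, every T24R2 library lay above every T24 library, which held for 29.9% of tested genes. Their log2 fold changes ran from 0.68 for SREBF2 to 4.01 for INSIG1, with a median of 1.82 and standard errors of 0.04 to 0.10. The highest edgeR adjusted p among them was 1.1e-10, and each gene reached 0.00794 in the exact two-sided permutation test of CPM, the smallest p that 5 libraries against 5 can give. Counts were 105 to 3789 per library, so none of the genes was near the counting floor in either line.

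**Figure D1:**
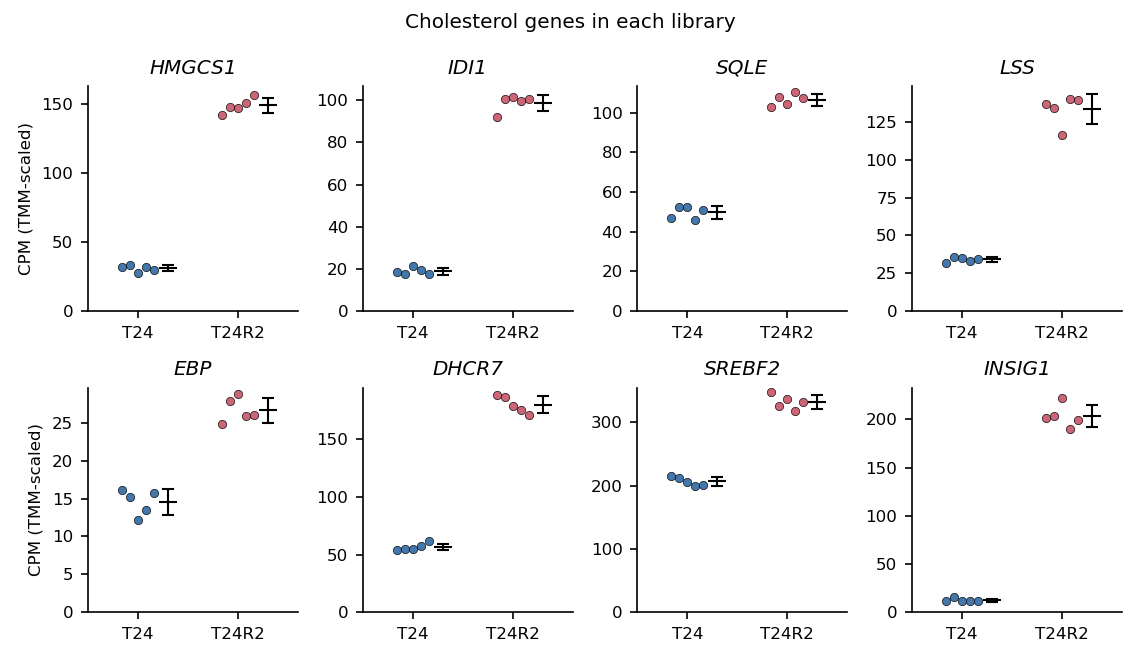
Each panel plots 1 gene, with TMM-scaled CPM from 0 on the vertical axis, a point for each of the 5 T24 and 5 T24R2 libraries and a bar for the mean ± SD. The lines do not overlap in any panel, and INSIG1 goes from 11.6 to 15.7 CPM in T24 to 191 to 223 CPM in T24R2.

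Start-site sequence is shown for these genes because they are known targets of, or encode, the sterol-responsive transcription factors, whose sites lie close to gene starts. RefSeq promoter windows of GRCh38.p14, 300 bases long with 250 before and 50 after the start, were present for 7 of the 8 genes, in 11 windows. Each stretch of 30 bases below holds, in capitals, 1 match to the sterol regulatory element core CACNCCAC, or where the gene had none, to the CCAAT box bound by NF-Y, on either strand. Positions count from the annotated start, with negative values before it, and sequences read 5′ to 3′ along the gene.
HMGCS1, chr5:43313495-43313524, minus strand, match at position -100: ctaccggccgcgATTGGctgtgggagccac
IDI1, chr10:1048983-1049012, minus strand, match at position -115: ggccgggcgatGTGGCGTGgactggcgctg
LSS, chr21:46228907-46228936, minus strand, match at position -150: cgcggcgctctgATTGGttgcgtgggcgtc
EBP, chrX:48521766-48521795, plus strand, match at position -30: cttcgcttcaccATTGGctcgctccgtaag
DHCR7, chr11:71448424-71448453, minus strand, match at position -48: ggtccgcctccgATTGGcaggcaatcgctg
SREBF2, chr22:41832962-41832991, plus strand, match at position -132: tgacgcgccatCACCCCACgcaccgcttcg
INSIG1, chr7:155297659-155297688, plus strand, match at position -208: gcgggccggcgGTGGCGTGtgcgcacgtca
IDI1, SREBF2 and INSIG1 held CACNCCAC, in 3 of 11 windows, or 27.3%, against 5.87% of all 35116 windows. CCAAT was present in all 7 genes and in 72.7% of their windows, against 34.6% of all windows. The GC box GGGCGG, bound by Sp1, was likewise in all 7 genes and in 90.9% of windows, against 45% of all. Across the 21 synthesis enzymes, 16 of which had a window, the shares of windows were 14.3%, 71.4% and 85.7%. The first of these shares rested on 3 windows of 2 genes. Across all 76 listed genes, 57 of which had a window, the shares were 8.86%, 49.4% and 74.7%. Both strands were searched, and matches of different motifs may share end bases. Such matches describe letters only, and no binding was measured.

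HMGCS1 (ENSG00000112972.15, chromosome 5, 43287470 to 43313512, minus strand, hg38) encodes the cytosolic synthase that makes HMG-CoA early in the pathway. Its CPM was 31.7, 33.2, 27.7, 31.6 and 29.6 in the T24 libraries and 142, 148, 147, 150 and 156 in the T24R2 libraries. The lines were far apart, at 30.8 ± 2.16 and 149 ± 5.28 CPM, a 4.83-fold rise with a log2 fold change of 2.27 (SE 0.06, edgeR adjusted p = 8.7e-31). IDI1 (ENSG00000067064.12, chromosome 10, 1039152 to 1049119, minus strand), the isomerase that converts isopentenyl diphosphate to its reactive isomer, had the larger rise of the pair. Its CPM was 18.7, 17.5, 21.1, 19.4 and 17.4 in T24 and 92.2, 100.5, 101, 99.4 and 100.4 in T24R2. The mean went from 18.8 ± 1.55 to 98.8 ± 3.73 CPM, or 5.25-fold (log2 fold change 2.39, SE 0.07, edgeR adjusted p = 2.2e-29). These were the largest rises among the 21 synthesis enzymes, and among the 68 listed genes that averaged 1 CPM or more, each was the nearest to the other in pattern, at a distance of 0.43 in centred log2 CPM over the 10 libraries.

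SQLE (ENSG00000104549.12, chromosome 8, 124998497 to 125022283, plus strand) encodes squalene epoxidase, which catalyses the oxygen-requiring entry into the sterol part of the pathway. The T24 libraries held 46.8, 52.6, 52.2, 45.8 and 50.8 CPM, and the T24R2 libraries 103, 108, 104, 110 and 107 CPM. SQLE rose 2.14-fold, from 49.6 ± 3.13 to 106 ± 3.01 CPM (log2 fold change 1.1, SE 0.06, edgeR adjusted p = 1.2e-20), which was the median change of the 21 enzymes. LSS (ENSG00000160285.15, chromosome 21, 46188141 to 46228824, minus strand), the cyclase that closes the sterol rings to give lanosterol, read 32.1, 35.7, 35.2, 33.2 and 34.4 CPM in T24. In T24R2 it read 137, 135, 117, 140 and 140 CPM, with replicate 3 below the other four. LSS rose 3.92-fold, from 34.1 ± 1.46 to 134 ± 9.84 CPM (log2 fold change 1.97, SE 0.06, edgeR adjusted p = 5e-28).

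EBP (ENSG00000147155.11, chromosome X, 48521799 to 48528716, plus strand) encodes the sterol isomerase that shifts the ring double bond late in the pathway, and it was the least abundant enzyme of the set by CPM in T24R2. Its CPM was 16.1, 15.2, 12.1, 13.4 and 15.8 in T24 and 24.8, 27.8, 28.8, 25.8 and 26.0 in T24R2. The rise was 1.84-fold, from 14.5 ± 1.69 to 26.6 ± 1.63 CPM (log2 fold change 0.87, SE 0.10, edgeR adjusted p = 1.1e-10), the smallest among the 6 enzymes. DHCR7 (ENSG00000172893.18, chromosome 11, 71428193 to 71452868, minus strand), which reduces 7-dehydrocholesterol, the precursor of vitamin D, to cholesterol, was higher in every T24R2 library. DHCR7 stood at 54.4, 54.9, 55.0, 57.4 and 61.4 CPM in T24 and at 188, 186, 178, 175 and 171 CPM in T24R2. It rose 3.17-fold, from 56.6 ± 2.90 to 180 ± 7.11 CPM (log2 fold change 1.67, SE 0.05, edgeR adjusted p = 8e-28).

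The regulators stood at the ends of the range. SREBF2 (ENSG00000198911.12, chromosome 22, 41833079 to 41907307, plus strand), the transcription factor gene, had 215, 212, 206, 199 and 202 CPM in T24 and 348, 326, 337, 318 and 332 CPM in T24R2. It rose 1.61-fold, from 207 ± 6.80 to 332 ± 11.3 CPM (log2 fold change 0.68, SE 0.04, edgeR adjusted p = 1.8e-17), and 19.5% of all tested genes had a larger log2 fold change. INSIG1 (ENSG00000186480.13, chromosome 7, 155297776 to 155310235, plus strand), the retention protein that is also a target of the factor it restrains, had the largest change. Its CPM was 11.6, 15.7, 12, 11.9 and 11.9 in T24 and 201, 204, 223, 191 and 199 in T24R2. INSIG1 rose 16.1-fold, from 12.6 ± 1.71 to 203 ± 11.7 CPM (log2 fold change 4.01, SE 0.07, edgeR adjusted p = 1.9e-36). Only 204 tested genes, or 1.26%, had a larger log2 fold change.

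Levels of different genes were compared per exon length, as FPKM on the same scaled libraries. In T24, SREBF2 was highest at 27.4 ± 0.900 FPKM, followed by SQLE at 11.5 ± 0.728 FPKM. DHCR7 and EBP, at 8.23 and 8.21 FPKM, overlapped each other, as did each neighbouring pair of LSS, HMGCS1, IDI1 and INSIG1, from 4.71 down to 3.46 FPKM. In T24R2, INSIG1 was highest at 55.8 ± 3.22 FPKM, above SREBF2 at 43.9 ± 1.5 FPKM without overlap. DHCR7 at 26.1 and SQLE at 24.7 FPKM overlapped, as did IDI1 at 23.0 and HMGCS1 at 22.4 FPKM, and LSS at 18.5 overlapped EBP at 15.1 FPKM. INSIG1 thus went from the lowest mean of the 8 to the highest, and EBP from the fourth place to the last. EBP shares 36.4% of its exon bases with ENSG00000286268 on the same strand, where fragments cannot be assigned to either gene, and the part of this in its FPKM was not tested.

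**Figure D2:**
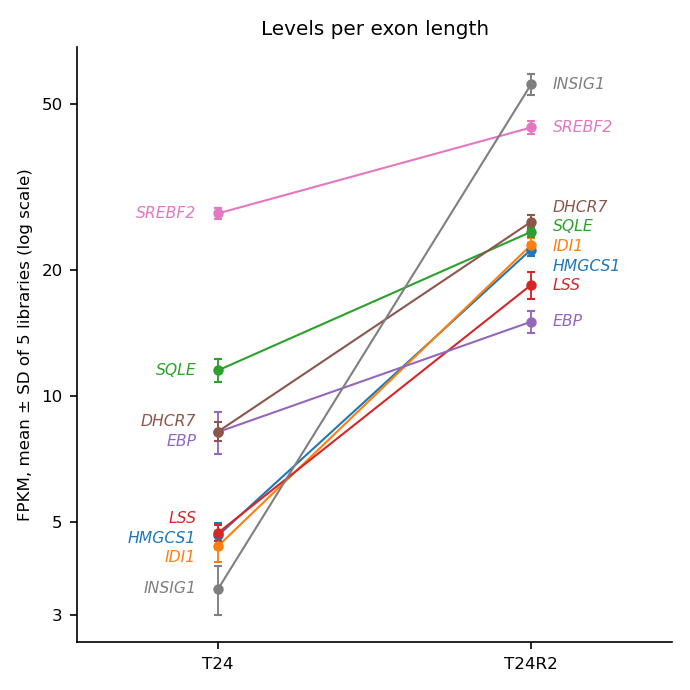
The plot of levels by line shows FPKM (log scale) as mean ± SD of 5 libraries for the 8 genes in T24 on the left and T24R2 on the right, with a line joining the means of a gene. INSIG1 climbs from 3.46 to 55.8 FPKM and crosses the other 7 genes, while SREBF2 goes from 27.4 to 43.9 FPKM.

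All 21 listed synthesis enzymes were tested, of which 18 were higher and 1 lower in T24R2. By comparison, 24.9% of all tested genes were called higher and 26.5% lower. The median log2 fold change of the 21 enzymes was 1.1 against 0.01 for all tested genes. Of the 15 enzymes outside the 8 genes, 12 were higher, and their median was 1.04. Together the 21 enzymes took 1224 ± 46.2 summed CPM in T24, with a range of 1170 to 1277, and 2741 ± 25.6 in T24R2, with a range of 2707 to 2768. Divided at squalene after the values were known, all 9 enzymes that lead to squalene were higher with a median of 1.29. From squalene on, 9 of 12 were higher with a median of 0.80.

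ACAT2, the thiolase that starts the pathway by joining acetyl-CoA units, had the largest rise outside the 8 genes, from 65.2 ± 3.94 to 247 ± 8.43 CPM (log2 fold change 1.92, SE 0.05). ACAT2 was also the listed gene nearest in pattern to LSS, at a distance of 0.22. FDPS, which makes farnesyl diphosphate, was nearest to SQLE at 0.23, with 95.3 and 199 CPM in T24 and T24R2. In exon bases, 22.2% of ACAT2 and 18.6% of FDPS are shared with genes on the opposite strand.

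TM7SF2 was the only enzyme that fell. Both it and LBR, named here after its values were seen, encode reductases of the same sterol double bond, and LBR is also an inner nuclear membrane protein. TM7SF2 held 27.4, 21.6, 24.8, 27.2 and 19.9 CPM in T24 and 10.0, 7.46, 7.58, 9.0 and 6.59 CPM in T24R2. It dropped from 24.2 ± 3.37 to 8.13 ± 1.36 CPM without overlap (log2 fold change -1.57, SE 0.12, edgeR adjusted p = 5.5e-15). LBR rose from 88.0 ± 7.98 to 146 ± 8.87 CPM (log2 fold change 0.73, SE 0.06, edgeR adjusted p = 7.5e-15). TM7SF2 made up 21.7% ± 3.65 of the summed CPM of the pair in T24 and 5.30% ± 0.976 in T24R2 (SD, n = 5 libraries), while the sum went from 112 to 154 CPM. These shares are not scaled to exon length, which is 3408 bases for TM7SF2 and 5710 for LBR, so they understate TM7SF2. Per exon length, TM7SF2 and LBR averaged 7.09 and 15.4 FPKM in T24 and 2.38 and 25.5 FPKM in T24R2. The enzymes not called were NSDHL and HSD17B7, named for that reason after their values were seen. NSDHL had 32.4 and 40.0 CPM, and HSD17B7, which shares sequence with a pseudogene, had 11 and 13.2 CPM, in T24 and T24R2.

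**Figure D3:**
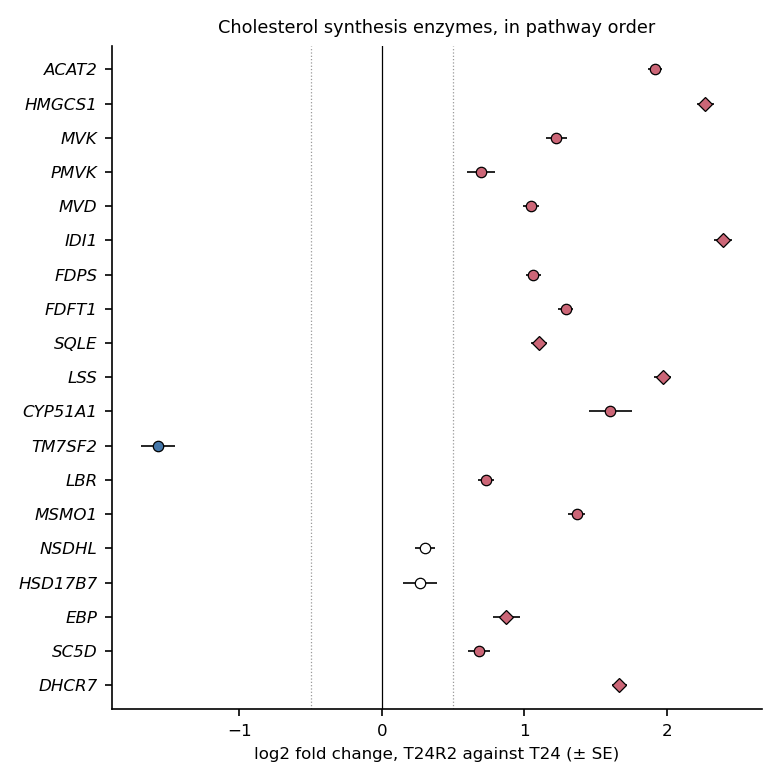
The plot of synthesis enzymes in pathway order gives log2 fold change ± SE of T24R2 against T24, with diamonds for the 6 enzymes among the 8 genes, red for called higher, blue for called lower and open for not called, and dotted lines at 0.5 in both directions. HMGCS1 and IDI1 lie furthest right at 2.27 and 2.39, and TM7SF2 alone lies left of zero at -1.57.

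Of 13 sensing and processing genes, 4 were higher, 1 was lower and 8 were not called, with a median log2 fold change of 0.33, where 24.9% of all tested genes were called higher and 26.5% lower. The share called higher was close to that background, so no change of these genes as a group is read from the count. Apart from SREBF2 and INSIG1, the higher genes were SREBF1 and SPRING1. SREBF1, the sister transcription factor with a larger role in fatty acid synthesis, rose from 65.3 ± 3.41 to 185 ± 10.2 CPM (log2 fold change 1.51, SE 0.05, edgeR adjusted p = 4.3e-26). SPRING1, a Golgi protein needed for the processing of both factors, rose from 31.2 ± 1.78 to 56.6 ± 3.63 CPM (log2 fold change 0.86, SE 0.07, edgeR adjusted p = 2.4e-14) and was nearest in pattern to EBP, at a distance of 0.31. RNF145, an endoplasmic reticulum ubiquitin ligase of the sterol-sensing machinery, fell from 178 ± 7.39 to 67.2 ± 1.87 CPM (log2 fold change -1.41, SE 0.05, edgeR adjusted p = 5.3e-26). Other regulators, chosen here for their known part in the circuit after values were seen, were not called. INSIG2, the paralog of INSIG1, held 28.4 ± 2.18 CPM in T24 and 27.0 ± 2.45 CPM in T24R2 with overlap (edgeR adjusted p = 0.456). SCAP, MBTPS1 and MBTPS2 had log2 fold changes of 0.40, 0.33 and -0.22, short of the 0.5 limit. Their edgeR adjusted p-values were 2.7e-08, 1.8e-08 and 0.031. Every T24R2 library lay above every T24 library for SCAP and MBTPS1, while the lines overlapped for MBTPS2.

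INSIG1 had no close partner in the lists. Its nearest gene was IDI1, at a distance of 2.58, against 0.22 to 0.43 for the nearest gene of each of the other 7. These distances rest on the same 10 libraries and mainly on the difference between the lines, so they are descriptions only.

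Of 9 listed uptake genes, 8 were tested, and 2 were higher, 3 lower and 3 not called, with a median log2 fold change of 0.05, beside the same 24.9% and 26.5% of all tested genes. In 3 of the 8 every T24R2 library lay above every T24 library, which held for 29.9% of all tested genes. In another 3 every T24R2 library lay below every T24 library, which held for 31.3%. LRP8, a receptor for apolipoprotein E and reelin, rose from 45.8 ± 5.11 to 71.6 ± 1.74 CPM (log2 fold change 0.64, SE 0.06, edgeR adjusted p = 1.3e-11). VLDLR, a receptor of triglyceride-rich lipoproteins, fell from 16.8 ± 1.87 to 8.79 ± 1.78 CPM (log2 fold change -0.93, SE 0.13, edgeR adjusted p = 2.1e-08). LRP1, a large scavenging receptor named after its values were seen, fell from 210 ± 12.8 to 112 ± 4.17 CPM (log2 fold change -0.90, SE 0.05).

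Of 12 transport genes, 11 were tested, with 4 higher, 1 lower and 6 not called and a median log2 fold change of 0.13. With 24.9% of all tested genes called higher and 26.5% called lower, nothing is read from this count about the transport genes as a group. STARD4, a cytosolic sterol carrier, rose from 42.8 ± 2.38 to 114 ± 5.02 CPM (log2 fold change 1.42, SE 0.06, edgeR adjusted p = 4.4e-24). STARD5, a carrier of the same family, rose from 3.73 ± 0.601 to 8.30 ± 1.29 CPM (log2 fold change 1.15, SE 0.17), but 72.0% of its exon bases are shared with genes on the opposite strand. GRAMD1C, which moves sterol between membranes at contact sites, fell from 16.5 ± 2.95 to 8.88 ± 1.33 CPM (log2 fold change -0.90, SE 0.13, edgeR adjusted p = 8e-08).

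Storage, efflux and oxysterol genes held no called rise among those tested, where 24.9% of all tested genes were called higher. Of 12, 6 had enough counts to be tested, and 3 were lower, against 26.5% of all tested genes, and 3 not called, with a median log2 fold change of -1.06. Every T24R2 library lay above every T24 library in 2 of the 6, against 29.9% of all tested genes, and below in 3, against 31.3%. ABCA1, which loads cholesterol onto apolipoprotein A-I, read 17, 18, 16.8, 20.1 and 17.6 CPM in T24 and 2.02, 2.34, 2.40, 2.23 and 1.38 CPM in T24R2. It fell from 17.9 ± 1.32 to 2.07 ± 0.415 CPM (log2 fold change -3.10, SE 0.15, edgeR adjusted p = 7.6e-21). ABCG1, which exports cholesterol to high-density lipoprotein, had a similar profile, with 19.6, 15.7, 18.3, 21.5 and 14.2 CPM in T24 and 1.56, 2.25, 2.11, 2.58 and 1.38 CPM in T24R2. Its log2 fold change was -3.16 (SE 0.17, edgeR adjusted p = 8.8e-20). The third that fell, NCEH1, a cholesteryl ester hydrolase named to complete the count, went from 224 ± 16.8 to 67.4 ± 1.99 CPM (log2 fold change -1.73, SE 0.05). The receptors that control both pumps, NR1H2 and NR1H3, were not called, at log2 fold changes of 0.26 and -0.38. Their edgeR adjusted p-values were 0.00019 and 0.0035. Every T24R2 library lay above every T24 library for NR1H2, while the lines overlapped for NR1H3. SOAT1, which esterifies cholesterol, was just short of the call at 0.50 (SE 0.07). Among the untested genes, CYP27A1, a sterol hydroxylase, had 6 to 20 counts per library in T24 and none in T24R2, and CYP7B1 had no count in any library. CYP46A1, another sterol hydroxylase, had 0 to 1 count in T24 and 6 to 13 in T24R2, and SOAT2, which esterifies cholesterol, had 0 to 1 and 3 to 9, so these untested genes went in both directions. The untested genes were named after their values were seen.

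Among the branches that draw on mevalonate for other products, none of 9 genes was called higher, against 24.9% of all tested genes, and 1, COQ2 of ubiquinone synthesis, was lower, at 21.2 ± 2.58 and 14.7 ± 1.15 CPM (log2 fold change -0.52, SE 0.10, edgeR adjusted p = 1.9e-05). That call was lost without T24 replicate 4 (-0.49) or T24R2 replicate 5 (-0.47). The median log2 fold change of the branch genes was 0.24, and their summed CPM was 216 ± 10.7 in T24 and 213 ± 5.60 in T24R2. Over the 6 lists, the 60 tested genes outside the 8 gave 20 called higher, 10 called lower and 30 not called, with a median of 0.27, beside 24.9% of all tested genes called higher and 26.5% called lower. Of those 30, 23 had an adjusted p under 0.05 with a smaller change.

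**Figure D4:**
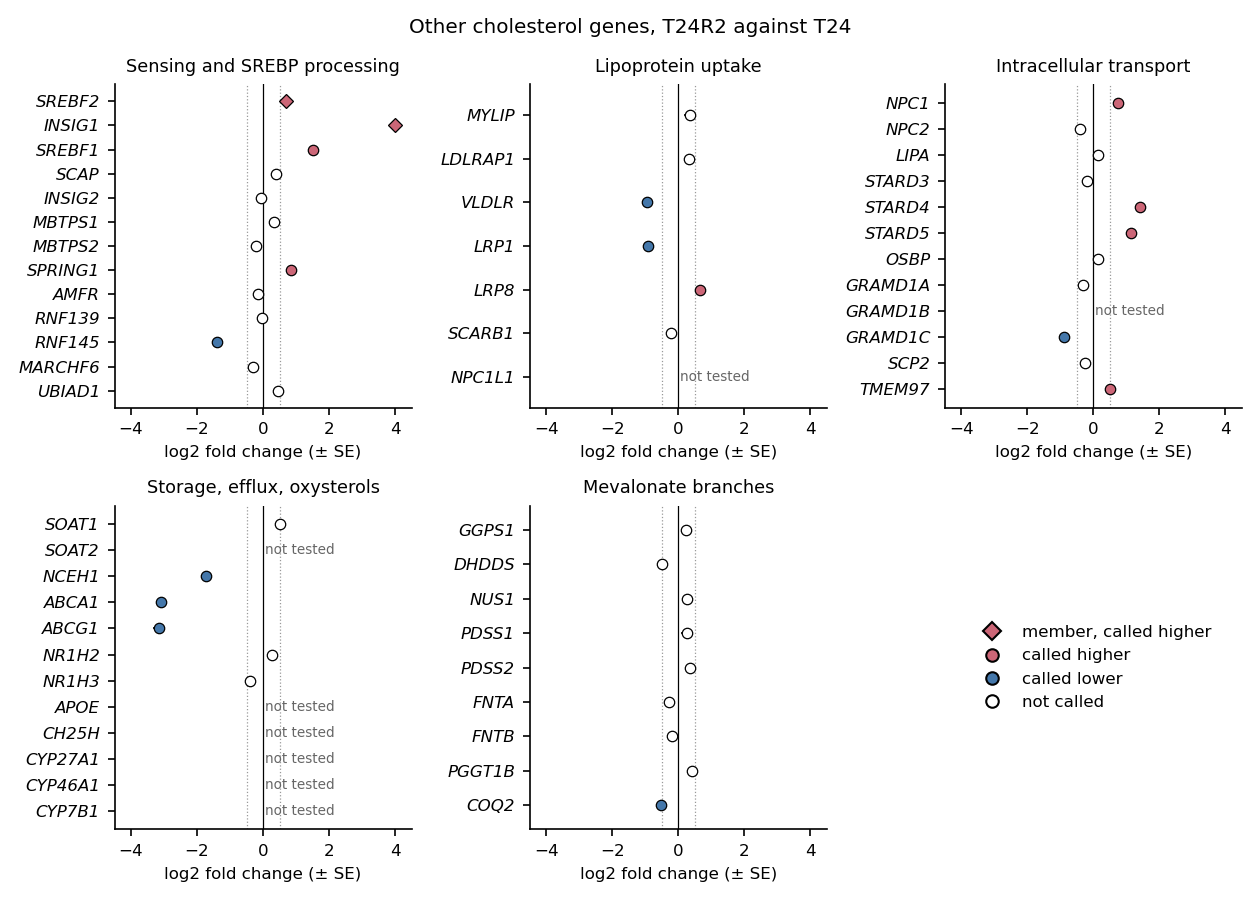
Log2 fold changes ± SE of T24R2 against T24 are plotted for sensing, uptake, transport, storage and efflux, and branch genes, with dotted lines at 0.5 in both directions. INSIG1 at 4.01 stands furthest right, ABCA1 and ABCG1 lie near -3.10 and -3.16, and the branch genes stay close to zero.

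The count tables were made with a strand setting, while the kit is not described as marking strand, so reads of genes that overlap on opposite strands may not be told apart. HMGCS1 shares 37.7% of its exon bases with ENSG00000261604, which went from 7.41 ± 1.24 to 40.1 ± 2.73 CPM (log2 fold change 2.44). IDI1 shares 15% with IDI2-AS1, whose log2 fold change was 2.52. LSS shares 1.69% with ENSG00000223901, at 1.96, and 6.19% with ENSG00000228404, which stayed at or below 0.41 mean CPM. SREBF2 shares 3.71% with SREBF2-AS1, at 0.45. Each overlapping gene with enough counts thus had a log2 fold change of the same sign as its partner. With every count of the overlapping genes taken off, the log2 ratio of mean CPM went from 2.27 to 2.22 for HMGCS1, from 2.39 to 2.37 for IDI1, from 1.97 to 1.99 for LSS and from 0.68 to 0.71 for SREBF2. For HMGCS1, IDI1 and LSS, the overlapping genes with enough counts had log2 fold changes close to the members' own. Taking them off could therefore move these ratios little, whichever gene the reads came from. SQLE, EBP, DHCR7 and INSIG1 have no exon overlapped from the other strand.

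The genes around each member were read from the same fit, as the 5 nearest tested genes on each side. The median log2 fold change of the 10 neighbours was between 0.00 and 0.04 for SQLE, LSS, EBP, DHCR7 and SREBF2. It was higher for HMGCS1, at 0.76, for IDI1, at 0.67, and for INSIG1, at 1.18. The neighbours of INSIG1 ran from 0.01 to 2.02, all below its own 4.01. HMGCS1 was exceeded by 1 of 10 neighbours, which was the overlapping ENSG00000261604. IDI1 was exceeded by 2 of 10, of which 1 was the overlapping IDI2-AS1, and EBP by 1 of 10. The highest neighbour of LSS, at 1.96, was the overlapping ENSG00000223901. Reads of these overlapping genes may not be told apart from those of the members. SREBF2, with the smallest change, was exceeded by 3 of 10. The part of the surrounding region in these rises was not tested.

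**Figure D5:**
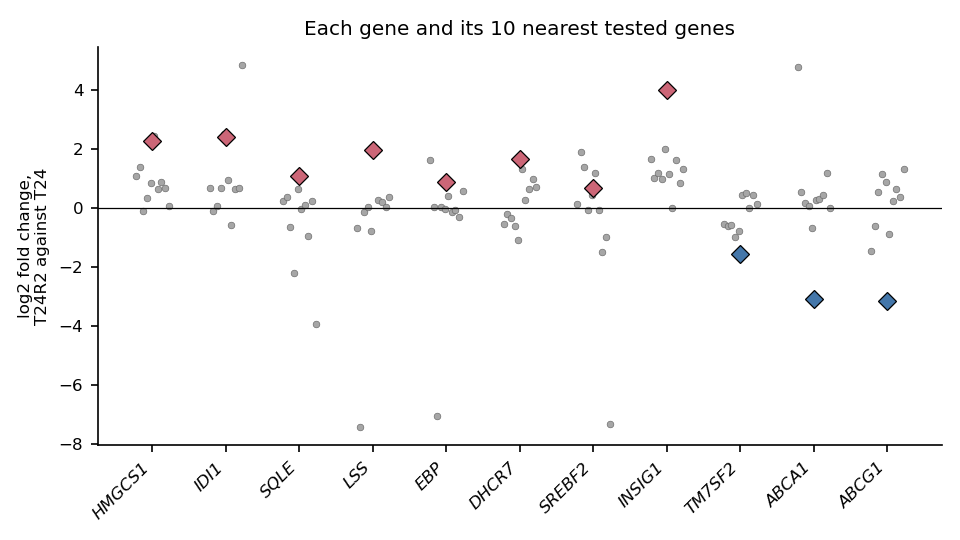
The plot of neighbouring genes gives the log2 fold change of T24R2 against T24 for the 8 genes and for TM7SF2, ABCA1 and ABCG1 (diamonds) and for the 10 nearest tested genes of each (grey points). The diamonds of SQLE, LSS, DHCR7 and INSIG1 lie above all 10 of their neighbours, while the grey points around INSIG1 centre on 1.18.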

How the data were processed

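RNA-seq libraries of T24 and T24R2 (n = 5 each) were grouped by the cell line in the labels. The authors used STAR 2.7.0 for alignment to hg38 and samtools 1.10 to keep deduplicated, uniquely mapped reads, and the deposited values are raw counts per gene of GENCODE release 39 from featureCounts 2.0.1 with strand option 1, without normalization. Removing duplicates by position without molecular identifiers can lower the counts of abundant transcripts. No other columns of per-sample values were found (0).

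Counts were tested in R 4.3.3 with edgeR 4.0.16 (filterByExpr, TMM, glmQLFit, glmQLFTest, Benjamini-Hochberg adjustment over 16181 genes), and a call needed an adjusted p under 0.05 with a log2 fold change beyond 0.5 either way. The biological coefficient of variation was 6.61%. CPM and FPKM used TMM-scaled library sizes and the deposited exon lengths. Exact permutation tests used SciPy 1.17.1, and overlaps bedtools 2.31.1. The main edgeR fit alone was tried on simulated counts, with far fewer changed genes than were called here. Alternatives were other normalizations, filters, fold change minimums and tools (DESeq2 1.42.0, limma 3.58.1), the replicate block and leaving out each library.

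The 8 genes and the 6 lists were chosen with earlier results of these data known. Genes named were the 8, the 2 largest rises and 2 largest falls called in each list among those averaging 1 CPM or more, overlapping opposite-strand genes and the gene nearest in pattern to each of the 8 (Euclidean distance of centred log2 CPM). Others were chosen after their values were seen. Some listed genes are counted in the lists but not reported here by name.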

Additional observations from a re-analysis of the deposited data

Results flagged for a closer look

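In 4 of the 47 groups of 5 libraries looked at for the named genes, 1 library stood apart from the other four by Dixon's criterion at 95%, where chance gives about 1 group in 20, or 2.35 of them. IDI1 in T24R2 replicate 1 was at 92.2 CPM, with the others at 99.4 to 101 CPM. LSS in T24R2 replicate 3 was at 117 CPM, with the others at 135 to 140 CPM. INSIG1 in T24 replicate 2 was at 15.7 CPM, with the others at 11.6 to 12 CPM. VLDLR in T24 replicate 5 was at 20.1 CPM, with the others at 15.5 to 16.3 CPM. The flags fell in 4 different libraries. Leaving out each library in turn kept the log2 fold change between 2.36 and 2.43 for IDI1, 1.94 and 2.02 for LSS, 3.97 and 4.10 for INSIG1, and -1.03 and -0.86 for VLDLR.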

How the results depend on the processing

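All 8 genes were called higher under every normalization, filter and tool tried and without any 1 library. With a log2 fold change over 1 required, 6 were called, since EBP and SREBF2 lie under it, and without genes overlapped from the opposite strand by over 10% of exon bases, 6 of the 6 left were. Over the alternatives INSIG1 ran from 3.97 to 4.17 and EBP from 0.81 to 1.04. With a log2 fold change over 1, 4211 of all 16181 genes were called against 8309, with 1918 higher and 2293 lower. Of the 60 other listed genes, 12 were then higher and 6 lower, against 20 and 10. Without a fold change minimum, 32 of these 60 were higher and 21 lower, beside 6128 and 6084 of all 16181 genes. Under the 100-count filter, 4991 of 10686 genes were called, 2350 higher and 2641 lower. There, 20 of the 53 other listed genes tested were higher and 6 lower. COQ2 was also not called without scaling (-0.36), with upper-quartile normalization (-0.45) or with a mean of at least 100 counts (-0.49). No alternative turned a direction.

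Replicate numbers are shared by the lines, but same-numbered libraries did not deviate together (correlations of -0.021 to 0.016), and 1 of 5 correlated best with its own number. With the replicate block, 8240 genes were called against 8309, and the 8 genes and the counts of 20 higher and 10 lower among the others were as without it. Depth was no limit for the 8 genes, but 8 of 76 listed genes were too low to test.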
